A study of Rattus norvegicus with 11 samples.

Results

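The genes of the corticotropin-releasing factor (CRF) system and of the corticosteroid response were examined on arrays of rat medial prefrontal cortex, in rats that had self-administered heroin and in yoked saline rats. The members were chosen by gene name, with earlier results of these data known. They are all non-control probes that the array files assign to Crh, Crhr1, Crhr2, Crhbp, Nr3c1, Nr3c2, Fkbp5 or Sgk. These 8 of the array's 35561 different gene names and sequence identifiers had 13 probes among the 41012 non-control probes of the array, and 11 of the 13 were among the 25555 probes that were tested. CRF is a neuropeptide that starts the hormonal stress response from the hypothalamus and is also made by cortical interneurons, where it acts locally through its receptors. Corticosteroids released at the end of that hormonal chain enter the brain, bind the glucocorticoid and mineralocorticoid receptors, and through them raise the transcription of target genes such as Fkbp5 and Sgk.

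All rats were male, 4 months old, and had 14 days of abstinence before an extinction session in the self-administration chamber, after which the tissue was taken at once. Of the 11 rats, 6 had self-administered heroin and 5 had been yoked to a heroin rat and had received saline. Each rat gave 1 single-colour array of the cortex medial to the forceps minor, from 4.2 to 2.2 mm anterior of Bregma. The yoked rats received their infusions without control over them, and both groups had the extinction session shortly before sacrifice.

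Signals are given as multiples of the array's median probe, and differences as heroin minus yoked saline on the log2 scale. Signals of different probes depend on the probe and were not compared with each other. The array medians before scaling ranged from 42.7 to 83.2, and between 28185 and 33835 probes were detected per array. On this scale the median tested probe was 0.18 higher in the heroin rats and 78.7% of the tested probes were higher, whereas after quantile normalization the median was 0.01, so the quantile-normalized value is given beside the differences of single genes. In whole tissue, fewer cells of a type and less RNA per cell cannot be told apart. The heroin and saline rats of the same replicate number shared a slide (heroin replicate 1 was alone on its slide), with the heroin array always at position 4 and the saline array at position 3, so slide position and group cannot be told apart. Within-slide comparisons of single genes are on the main scale unless stated. Most tested probes were higher in heroin on that scale, and the share with the same slide count is not given here. The number of arrays, 6 and 5, limits the precision of every value.

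No member passed the thresholds of the study, an unadjusted p under 0.02 together with a change of at least 1.4-fold. They were applied here to limma p, and 694 of all tested probes passed (2.72% of them). The study applied them to a test that did not assume equal variances. With a t-test of that kind on these arrays, 308 probes passed (1.21%). No member had an adjusted p under 0.05, and neither did any other tested probe (0% of them), with 0.263 as the smallest adjusted p by limma. The lead probe, the brightest one of each gene, was tested for 7 members and was nominally higher in the heroin rats in all 7, by a median of 0.28 against 0.18 over all tested probes. After quantile normalization 4 of the 7 were higher and 3 were lower, with a median of 0.03 against 0.01. An unadjusted limma p under 0.05 with a higher heroin value was found for 3 lead probes (those of Crh, Crhr1 and Crhbp) and 5 member probes in all, where 15.7% of all tested probes had one. With the replicate number, and so the slide, as a block, the brighter Crhr1 probe and the second Nr3c1 probe no longer had one, which left 2 lead probes and 3 member probes against 7.92% of all tested probes. After quantile normalization it was found for no lead probe and for 1 member probe of Crhr1, where 4.03% of all tested probes had one. The groups overlapped at all 13 member probes, as they did at all but 1.78% of the tested probes.

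**Figure D1:**
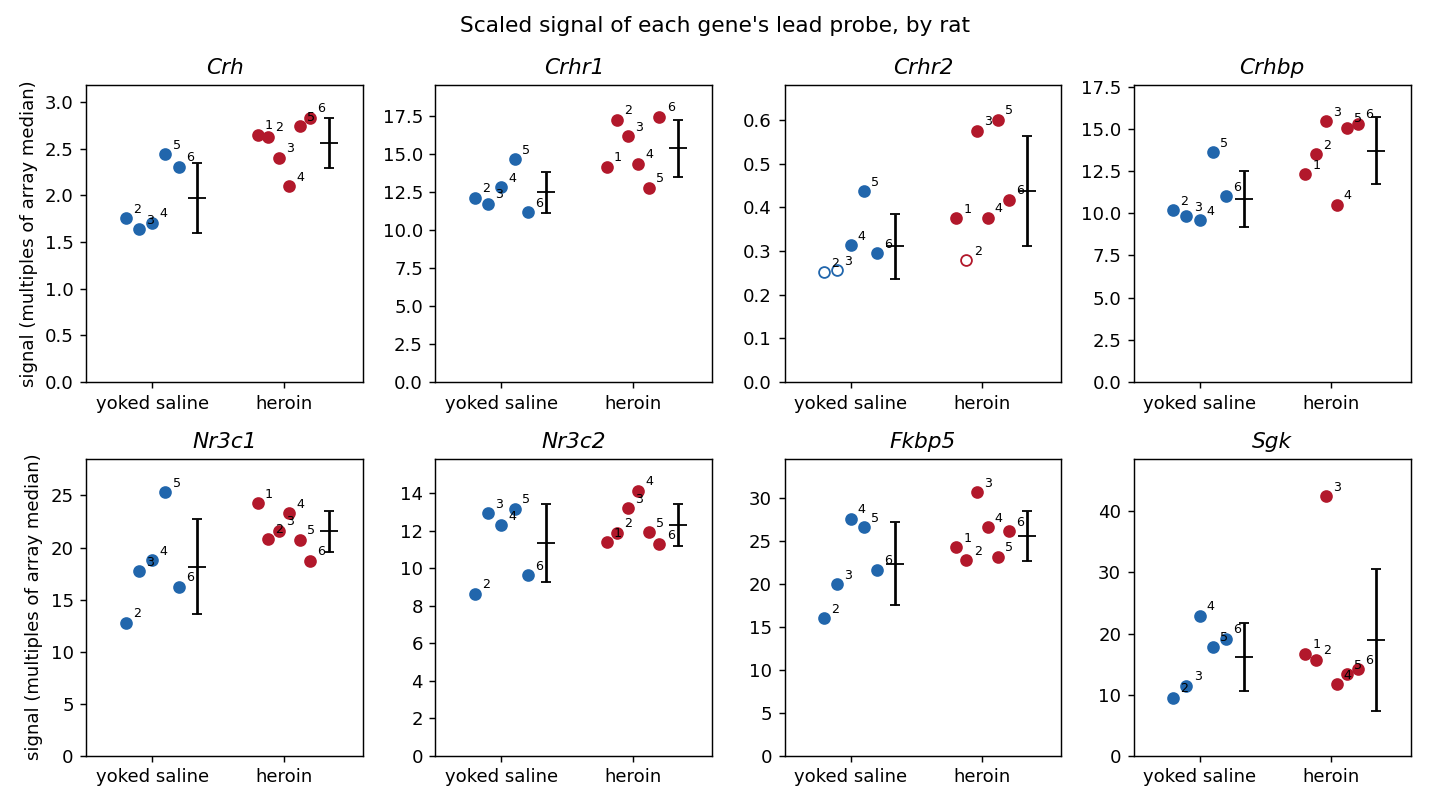
Scaled signal (multiples of the array median, linear axis from 0) of the lead probe of each gene in every rat, with replicate numbers beside the points; open points were not well above background, and bars give the mean ± SD. The groups overlap in all 8 panels, and heroin replicate 3 stands alone for Sgk at 42.5.

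The peptide gene Crh, which encodes CRF itself, had the smallest p of the 7 lead probes. Its probe lies at chr2:104709215-104709274 on the minus strand (build rn3, as are all probe positions here). In the 6 heroin rats the signal had a lowest value of 2.10, a median of 2.64 and a highest value of 2.83. In the saline rats it was 1.76, 1.64, 1.71, 2.44 and 2.30 in replicates 2 to 6. Saline replicates 5 and 6 thus lay within the heroin range, while the other 3 saline rats lay below every heroin rat. The difference was 0.39 ± 0.14 (SE, 95% confidence interval 0.09 to 0.69), a 1.31-fold higher signal, with a limma p = 0.0151 (adjusted p = 0.263) and an exact two-sided permutation p = 0.0216. Of all tested probes, 8.95% had a larger difference. The heroin rat was higher within each of the 5 shared slides, by 0.17 to 0.58. With the replicate number, and so the slide, as a block, the difference was 0.38. After quantile normalization the difference was 0.26 with an exact permutation p = 0.0996, which was above 0.05.

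Of the CRF receptors, Crhr1 encodes the type 1 receptor, the main CRF receptor of the cortex, and Crhr2 the type 2 receptor, which binds the urocortins more tightly than CRF. Crhr1 had a pair of probes whose highest rats were not the same. Its brighter probe, at chr10:93369413-93369472, ranged from 12.8 to 17.5 in the heroin rats with a median of 15.3. The saline rats had 12.1, 11.7, 12.8, 14.7 and 11.2 in replicates 2 to 6, so that saline replicate 5 lay above 3 of the 6 heroin rats. The difference was 0.30 ± 0.13 (SE) with an exact permutation p = 0.0260 and an adjusted limma p = 0.263, and it was 0.05 after quantile normalization (exact permutation p = 0.517).

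The dimmer Crhr1 probe spans chr10:93367959-93368492 in build rn3, a stretch longer than its 60 bases, so its sequence is split in the genome. It ranged from 1.16 to 2.04 in the heroin rats with a median of 1.45. In the saline rats it read 1.29, 0.99, 1.08, 0.93 and 1.27, so that 3 of the 5 lay below every heroin rat. The difference was 0.41 ± 0.16 (SE, exact permutation p = 0.0368, adjusted p = 0.263), and at 0.36 it was the member difference least changed by quantile normalization (exact permutation p = 0.0606 there, adjusted limma p = 0.624). Without heroin replicate 3, its highest rat, the difference was 0.32. Across the 11 rats, the deviations of these Crhr1 probes from their group means correlated with r = -0.16 (permutation p = 0.673, rho = -0.22) on the main scale and r = 0.28 (permutation p = 0.440) after quantile normalization.

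Crhr2 was close to the detection limit. Its only probe, at chr4:84110663-84111124, was well above background on 5 of 6 heroin and 3 of 5 saline arrays and was therefore not tested with limma. The signal ran from 0.28 to 0.60 in the heroin rats with a median of 0.40. The saline rats read 0.25, 0.26, 0.31, 0.44 and 0.29, a range that overlapped the lower 4 heroin rats. The difference was 0.47, with an exact two-sided permutation p = 0.0801 without adjustment, and 0.70 after quantile normalization with an exact permutation p = 0.0346. The average signal was only 1.53 times the lowest signal that counted as well above background, so the size of this difference rests on dim spots. Within the 5 shared slides the heroin rat had the higher signal on all 5 for Crhr2 and on 4 for each Crhr1 probe.

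The Crhr1 and Crhr2 probes whose span in the genome is longer than the probe itself are shown because their signals are those of receptors read near the detection limit or apart from a second probe, and the Crhbp probe because Crhbp had the highest correlation with Crh from rat to rat. Each is given 5′ to 3′ as in the array files, with no part marked.
Crhr1 (dimmer probe): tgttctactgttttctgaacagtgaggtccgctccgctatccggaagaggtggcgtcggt
Crhr2: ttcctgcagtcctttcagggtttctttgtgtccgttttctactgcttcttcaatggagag
Crhbp: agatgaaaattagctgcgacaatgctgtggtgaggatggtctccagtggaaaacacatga

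Crhbp encodes the CRF-binding protein, a secreted protein that holds CRF away from its receptors. Its probe lies at chr2:25722384-25722443. The heroin rats had a lowest signal of 10.5, a median of 14.3 and a highest signal of 15.4. The saline rats had 10.2, 9.81, 9.58, 13.6 and 11.01 in replicates 2 to 6, with replicate 5 again the highest saline rat, as for Crh. The difference was 0.34 ± 0.14 (SE, 95% confidence interval 0.03 to 0.64), with a limma p = 0.0323 (adjusted p = 0.263) and an exact two-sided permutation p = 0.0411. On the main scale the heroin rat was higher on all 5 shared slides, by 0.13 to 0.65. With quantile-normalized values it was lower on the slide of replicate 4 (log2 signal 9.28 against 9.31). After quantile normalization the difference was 0.10 (exact permutation p = 0.481), and 16.1% of all probes had a larger difference on the main scale.

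Among the corticosteroid receptors, Nr3c1 encodes the glucocorticoid receptor and Nr3c2 the mineralocorticoid receptor, the higher-affinity receptor for corticosterone. The brighter Nr3c1 probe, at chr18:32407198-32407257, ranged from 18.7 to 24.3 in the heroin rats with a median of 21.2. The saline rats read 12.8, 17.7, 18.8, 25.3 and 16.2, so that the highest of all 11 rats was a saline rat. The difference was 0.28 ± 0.16 (SE) with an exact permutation p = 0.102 (adjusted limma p = 0.309), and 0.03 after quantile normalization. The second Nr3c1 probe, at chr18:32406831-32406892, differed by 0.33 ± 0.16 (SE, exact permutation p = 0.0476, adjusted p = 0.269) and by 0.09 after quantile normalization. On that probe the lowest saline rat was replicate 2 at 9.48, and without it the difference was 0.21. The saline rats were the more spread group for the brighter probe, with an SD of 0.36 on the log2 scale against 0.13 in the heroin rats, and after quantile normalization these SDs were 0.19 and 0.13. Within the shared slides on the main scale, the heroin rat was higher on 4 of 5 for the brighter probe. For the second it was higher on all 5. With quantile-normalized values, the brighter probe was lower in the heroin rat on the slides of replicates 3, 5 and 6. The second probe was then lower on the slide of replicate 3.

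The brighter Nr3c2 probe, at chr19:32532891-32532949, showed the least separated groups among the receptors. It ranged from 11.3 to 14.1 in the heroin rats with a median of 11.9, and read 8.65, 12.9, 12.3, 13.2 and 9.63 in the saline rats. The difference was 0.13 ± 0.14 (SE, exact permutation p = 0.327, adjusted p = 0.543) and turned to -0.11 after quantile normalization and to -0.08 with scaling to the 75th percentile. The second Nr3c2 probe, at chr19:32592069-32592128, had the opposite sign on the main scale. It was well above background on 1 of 6 heroin arrays and 4 of 5 saline arrays, and its average signal was 0.99 times the lowest signal counted as well above background. The heroin rats ranged from 0.07 to 0.31 with a median of 0.11, and the saline rats read 0.54, 0.44, 0.31, 0.17 and 0.33. The difference of the measured signals was -1.35, with an exact two-sided permutation p = 0.0260 without adjustment, and -1.19 after quantile normalization, but most heroin values were not well above background and this size is not a measured level. Both Nr3c2 probes were thus lower in heroin after quantile normalization but not on the main scale. Their deviations correlated with r = -0.41 (permutation p = 0.174) on the main scale and with r = 0.25 (permutation p = 0.448) after quantile normalization.

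Fkbp5 encodes a co-chaperone that binds the glucocorticoid receptor complex and lowers its affinity for hormone, and its own transcription is raised by glucocorticoids. The brightest of its 3 probes, at chr20:6637827-6637886, ranged from 22.8 to 30.7 in the heroin rats with a median of 25.2. The saline rats read 16.0, 20.0, 27.6, 26.6 and 21.7, with replicate 4 above 5 of the 6 heroin rats. The difference was 0.22 ± 0.15 (SE, exact permutation p = 0.182, adjusted p = 0.385) and became -0.03 after quantile normalization. The second probe, at chr20:6638510-6638569, differed by 0.17 ± 0.19 (SE) and by -0.04 after quantile normalization. The third, at chr20:6647588-6647647, differed by -0.03 ± 0.13 (SE) and by -0.20 after quantile normalization, with an exact permutation p = 0.238 there. The first and second probe followed each other closely over the 11 rats (r = 0.83, permutation p = 0.00199), while the third had r = -0.40 with the first and r = -0.06 with the second. Saline replicate 2 was the lowest rat for the lead probes of Nr3c1, Nr3c2 and Fkbp5, and without it their differences were 0.16, 0.04 and 0.10.

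The probes that stood apart from the other probe or probes of their gene are shown for comparison, 5′ to 3′ as in the array files.
Nr3c2 (dimmer probe): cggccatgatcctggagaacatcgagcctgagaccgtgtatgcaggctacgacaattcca
Fkbp5 (dimmest probe): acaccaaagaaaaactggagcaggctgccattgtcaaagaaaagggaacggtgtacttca

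Sgk, now named Sgk1, encodes the serum- and glucocorticoid-regulated kinase and is a direct target of both corticosteroid receptors. Its probe lies at chr1:23504663-23504722. The heroin rats read 16.7, 15.7, 42.5, 11.7, 13.3 and 14.1 in replicates 1 to 6. The saline rats read 9.51, 11.4, 22.9, 17.9 and 19.1 in replicates 2 to 6. Heroin replicate 3 was thus far above every other rat, and the median of the saline rats, 17.9, was above that of the heroin rats, 14.9. The difference of the log2 means was 0.15 ± 0.31 (SE, exact permutation p = 0.727), -0.08 after quantile normalization, and -0.11 without heroin replicate 3. Sgk had the widest 95% confidence interval of the members, from -0.50 to 0.80. Within the shared slides the heroin rat was higher on 2 and lower on 3, between -0.97 and 1.89.

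The pattern of single rats was followed over a list of 20 genes that are known to be induced by glucocorticoids and are on the array, of which 17 were tested. None of the 17 passed the thresholds and none had an unadjusted p under 0.05 with limma. The smallest limma p were those of Dusp1, a phosphatase that switches off MAP kinases (0.59, exact permutation p = 0.126), Per1, a clock gene (0.43, p = 0.130), and Bcl6, a transcriptional repressor (0.36, p = 0.123). After quantile normalization these differences were 0.37 for Dusp1, 0.20 for Per1 and 0.11 for Bcl6. With the replicate number as a block, Dusp1 passed the thresholds (0.66). The median difference was 0.23 over the list against 0.18 over all tested probes, and 0.01 on both after quantile normalization. Heroin replicate 3 was the highest of the 11 rats for 12 of the 17 genes, and for 9 of 17 after quantile normalization. Over all tested probes it was the highest rat for 21.3% and, after quantile normalization, for 10.8%. Among the genes of the list, chosen here after their values were seen, it was the highest rat for Ddit4 (9.99 against 5.12 in the next rat), Angptl4 (9.15 against 5.27), Nfkbia (57.9 against 40.4), Errfi1 (104.1 against 75.8) and Lcn2 (4.16 against 2.72). Ddit4 encodes an inhibitor of mTOR signalling, Nfkbia the inhibitor of NF-kappaB and Angptl4 an inhibitor of lipoprotein lipase. The same rat was also the highest for the first and second Fkbp5 probes, at 30.7 and 7.58. As heroin replicate 3 was the highest rat for most genes of the list, leaving it out lowers their differences by itself. Without this rat the median of the list fell to 0.09 against 0.16 over all tested probes, and to -0.10 against 0.01 after quantile normalization. Over the members the median without it was 0.28, with 6 of 7 lead probes higher, and only Crh (0.41) kept an unadjusted p under 0.05 among the lead probes. After quantile normalization it was 0.04, with 4 of 7 higher and none with an unadjusted p under 0.05.

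**Figure D2:**
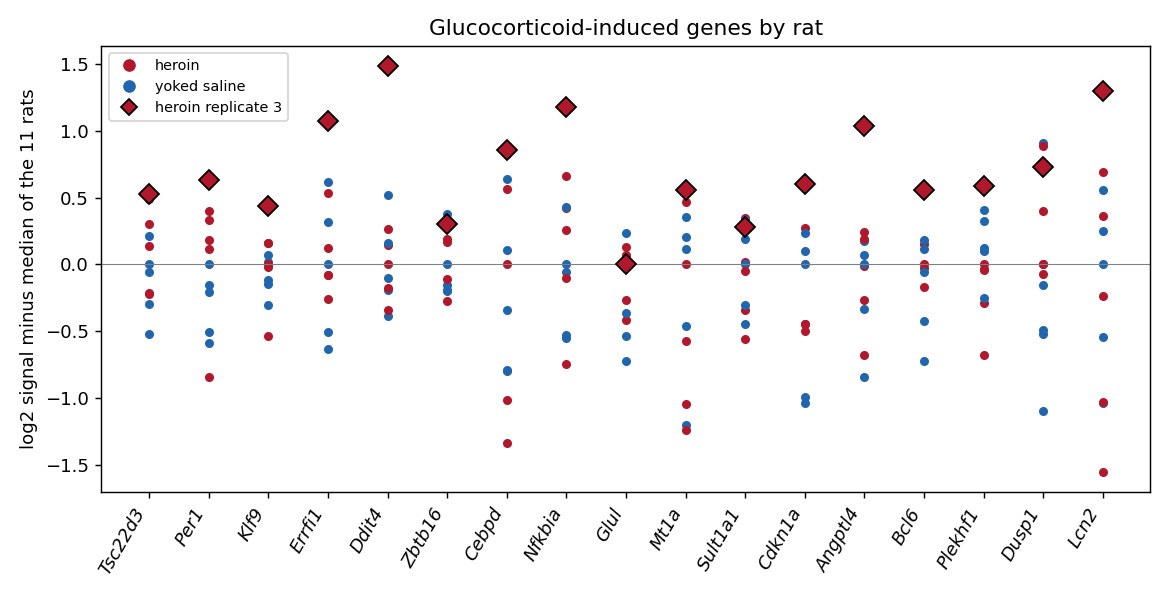
Log2 signal of the 17 tested glucocorticoid-induced genes in each rat, minus the gene's median over the 11 rats; heroin replicate 3 is drawn as a diamond. The diamond is the topmost point for 12 of the 17 genes, and the other heroin rats (red) and the saline rats (blue) are intermixed.

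The other lists of the pathway held no gene past the thresholds either. Of the related stress peptides and receptors, 5 of the 12 genes on the array were tested, with a median of 0.03 (-0.20 after quantile normalization). The smallest limma p were those of Adcyap1, the gene of the peptide PACAP (0.33, exact permutation p = 0.0887), its receptor gene Adcyap1r1 (-0.42, p = 0.113) and the vasopressin gene Avp (-0.22, p = 0.344). After quantile normalization they were 0.12 for Adcyap1, -0.52 for Adcyap1r1 and -0.30 for Avp. Of the steroid receptor chaperones and coregulators, all 11 on the array were tested. An unadjusted limma p under 0.05 with a higher heroin value was found for 15.7% of all tested probes and for 3 of these 11. These were Nrip1, a corepressor of nuclear receptors (0.44, exact permutation p = 0.0195, adjusted limma p = 0.263), Ppid, the immunophilin Cyp40 (0.32, p = 0.0238), and Ncoa1, the coactivator SRC-1 (0.41, p = 0.0541). After quantile normalization Nrip1 was at 0.23, Ppid at 0.07 and Ncoa1 at 0.17. No gene of that list then had an unadjusted limma p under 0.05. The median of the list went from 0.22 to -0.01, against 0.18 and 0.01 over all tested probes. Of the genes of corticosteroid metabolism and transport, 4 of 5 were tested and none had an unadjusted p under 0.05, with Hsd11b1, the enzyme that regenerates active corticosteroid within cells, at 0.25 (exact permutation p = 0.242), H6pd, which supplies its cofactor, at -0.39 (p = 0.247), and the efflux pump gene Abcb1 at 0.35 (p = 0.342). After quantile normalization Hsd11b1 was at 0.0015, H6pd at -0.33 and Abcb1 at 0.43.

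Members were also compared with each other rat by rat, as deviations of the log2 signal from the group mean over the 11 rats. None of the 28 pairs had a Benjamini-Hochberg adjusted permutation p under 0.05 on either scale. The highest correlation was that of Crh with Crhbp, with r = 0.77 (permutation p = 0.00600, adjusted p = 0.117) and rho = 0.75 (permutation p = 0.0116, adjusted p = 0.325). It was r = 0.75 after quantile normalization, and r = 0.65 without the 2 rats farthest from the median of Crh. Within the heroin rats alone r was 0.69 and within the saline rats 0.89. Fkbp5 and Sgk had r = 0.74 (permutation p = 0.00833, adjusted p = 0.117) and rho = 0.64 (permutation p = 0.0678, adjusted p = 0.467). It was r = 0.65 without the 2 rats farthest from the median of Fkbp5. These were saline replicates 2 and 4, so heroin replicate 3, the highest rat for Sgk, stayed in. After quantile normalization the correlation was also 0.74, and 0.59 without saline replicate 2 and heroin replicate 3. Nr3c1 and Nr3c2 had r = 0.77 on the main scale (permutation p = 0.0158, adjusted p = 0.147, rho = 0.74), which was 0.51 without 2 rats and 0.42 after quantile normalization. Crhr1 and Nr3c1 had r = -0.70 after quantile normalization (permutation p = 0.0139, adjusted p = 0.130, rho = -0.72) but r = 0.26 on the main scale. On the main scale 25 of the 28 correlations were positive, against 17 after quantile normalization.

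**Figure D3:**
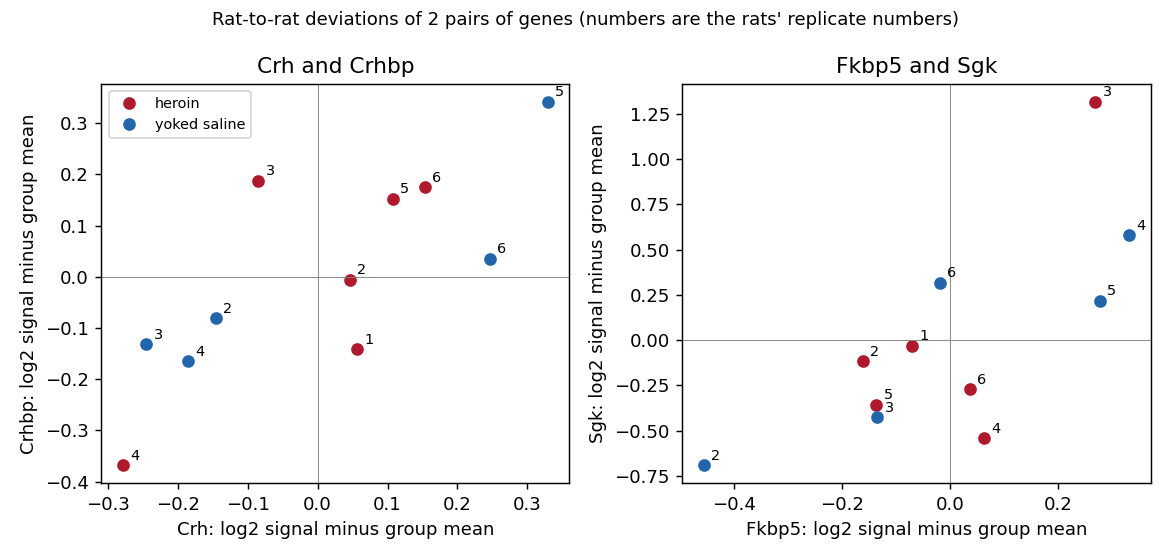
Deviation of each rat's log2 signal from its group mean for Crh against Crhbp and for Fkbp5 against Sgk, in heroin (red) and yoked saline (blue) rats with replicate numbers. Rats low for the gene on the x axis tend to be low for the other (r = 0.77 and r = 0.74), and heroin replicate 3 is the topmost point for Sgk.

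Each lead probe was set beside 11196 to 11198 other probes with gene names, and the 3 with the highest correlation of deviations after quantile normalization were taken as the genes most like it, a choice that makes high values certain. For Crh these were Rnf3 (r = 0.94), Pcsk1 (r = 0.93) and Armcx2 (r = 0.92), of which Pcsk1 encodes a prohormone convertase. For Crhbp they were Rgs4 (r = 0.96), Timm23 (r = 0.94) and Bcap31 (r = 0.93). For Crhr1 they were Asrgl1 (r = 0.95), Sec24a (r = 0.93) and Mrpl14 (r = 0.91), and for Nr3c1 Zfp294 (r = 0.95), Cpe (r = 0.94) and Atrn (r = 0.94). Nr3c2 had the lowest of these values, with Flt3 (r = 0.88), Casq2 (r = 0.83) and Pcdhga2 (r = 0.83). Fkbp5 was most like Kitl (r = 0.93), Tfpi (r = 0.91) and Zfp54 (r = 0.90), and Sgk most like Stk11ip (r = 0.92), Upp1 (r = 0.92) and St3gal4 (r = 0.91).

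Crh and Crhbp are genes of cortical interneurons, so the 8 interneuron markers on the array were read beside them. Their summed signal ranged from 784 to 1041 in the heroin rats and from 625 to 898 in the saline rats, a log2 difference of the group means of 0.24 (exact two-sided permutation p = 0.0433). After quantile normalization that difference was -0.0093 (exact permutation p = 0.935). Bright probes weigh most in such a sum, with mean heroin signals of 436 for Cck and 193 for Sst against 6.32 for Gad1. The sum is therefore not a level of all 8 markers alike. All 8 were detected on every array, and while all 8 were higher in heroin on the main scale, 3 were after quantile normalization, Vip, Gad1 and Calb2. Vip, the peptide of a class of interneurons, was 0.49 higher (exact permutation p = 0.00433, adjusted limma p = 0.263, 0.25 after quantile normalization) and passed the thresholds, with groups that did not overlap. Gad1, the enzyme that makes GABA, differed by 0.38 (exact permutation p = 0.0541, 0.17 after quantile normalization). The part of these cells in the Crh and Crhbp differences was not tested. The summed signals of the markers of astrocytes, oligodendrocytes, microglia, endothelium, blood and striatum had exact permutation p between 0.115 and 0.896 (0.0671 to 0.877 after quantile normalization). That of the projection neuron markers Slc17a7 and Camk2a had an exact permutation p = 0.110 (0.429 after quantile normalization). All neuronal, astrocyte and oligodendrocyte markers read were well above background on every array, and of the 4 striatal markers 3 were.

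RefSeq start sites (build GRCr8) gave 10 windows, from 250 bases before to 50 after the start, for 6 of the 8 members, namely Crhr1, Crhr2, Crhbp, Nr3c1, Fkbp5 and Sgk1. On both strands, TGACGTCA, the letters of a cyclic AMP response element, stood in none of the 10 and in 1.83% of all 33469 windows. The letters AGAACA, part of the DNA element of the corticosteroid receptors, stood in none and in 20.7% of all windows. The letters TATAAA stood in 3 of the 10, those of Crhbp and of a pair of Sgk1 starts, and in 14.2% of all windows. These are matches of letters in a short window and not binding sites.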

How the data were processed

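Cy3-labelled cRNA of each rat had been hybridised to a single-colour Agilent array. The authors deposited the scanner software's signal intensity of each spot (Feature Extraction 9.5.1.1), background-subtracted and not scaled between arrays. The deposited table of relative values, each a ratio to the probe's median, served as an alternative.

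Control spots and 99 to 231 marked spots per array were dropped. Signals were floored at 5, averaged over the spots of a probe and expressed relative to the array's 50th percentile of non-control probes, and log2 was taken. A probe counted as detected with at least 0.5 of its spots well above background, and was tested if detected on all 11 arrays and usable on at least 2 per group (25555 probes). Groups, taken from the sample records, were compared with limma (version 3.58.1, R 4.3.3), two-sided. Benjamini-Hochberg adjustment ran over all tested probes. Single probes were also tested by exact permutation over the 462 divisions of the rats, with 0.00216 as the smallest possible p, and correlations by all 86400 orders within groups. A gene's lead probe is its brightest detected one. The methods give a further saline array, which was not among the 11 samples available here.

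The members and lists were chosen with earlier results of these data known. Named were all members, the 3 genes of each other list with the smallest limma p and any past the thresholds, the 3 genes most like each member, and some cell type markers. Correlations of markers with members from rat to rat are not given here. The fit was also run on simulated data in which each probe was drawn independently. Those data held no slide effect and no shift shared by all probes, so they cannot show how the fit behaves under such effects. Alternatives covered scaling, background correction, detection filters, the relative values, the test, array weights, the slide as a block, the mean of a gene's probes and leaving out each rat. Quantile normalization together with the replicate block was added after the data were seen. So were the list and member medians and counts without heroin replicate 3, the Sgk outlier. Scan times in the headers show that same-numbered rats shared a slide, and their deviations from the group means correlated with r between -0.24 and 0.38 over all tested probes. Exon positions of the probes were not analysed here.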

Additional observations from a re-analysis of the deposited data

Results flagged for a closer look

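In 50 groups of rats checked, those of the 13 member probes and the 12 named genes of the other lists, 4 held a rat far outside the rest of its group, where chance alone gives about 1 in 20. For Sgk it was heroin replicate 3 at 42.5, against 16.7 in the next heroin rat and 11.7 in the lowest. For Per1 it was heroin replicate 6, low at 3.46 against 6.72 in the next rat and 9.64 in the highest. For Adcyap1r1 it was heroin replicate 2 at 1.72, against 1.13 in the next heroin rat. For Avp it was saline replicate 4 at 3.29, against 1.81 in the next saline rat. Signals are multiples of the array median. What set these rats apart was not tested.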

How the results depend on the processing

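No member's lead probe passed the thresholds under any alternative run, and none of the 28 pairs passed an adjusted p of 0.05 after quantile normalization. Without a detection filter, 1 member probe passed (the dimmer Nr3c2 probe, lower in heroin), as did 2 of the related stress peptides and receptors (Mc4r and Oxtr). With detection required in 1 group only, Mc4r was the 1 gene of that list to pass. With array weights, 1 gene of the related stress peptides and receptors, 1 chaperone or coregulator and 4 glucocorticoid-induced genes passed, and among the members Crh, the brighter Crhr1 probe and the brighter Nr3c1 probe reached adjusted limma p of 0.0234, 0.0354 and 0.0273, against at least 0.0607, 0.0819 and 0.0741 under every other alternative and up to 0.798, 0.933 and 0.996. With array weights 30.8% of all tested probes had an adjusted p under 0.05 and 9.31% passed both thresholds. With the replicate block, which is also the slide, 1 glucocorticoid-induced gene, Dusp1, passed, and the block changed no other of these counts. Leaving out 1 rat at a time gave 0 to 1 stress peptides and receptors (1 without saline replicate 5), 0 to 2 chaperones and coregulators (2 without saline replicate 5, 1 without heroin replicate 5) and 0 to 1 glucocorticoid-induced genes (1 without saline replicate 2, which was Dusp1, and 1 without heroin replicate 6, which was Per1). Of all tested probes, 9.21% passed both thresholds without saline replicate 5, against 2.72% with all rats. That share was 3.68% without heroin replicate 5, 1.34% without saline replicate 2 and 3.13% without heroin replicate 6. It was 3.81% without a detection filter, 3.77% with detection in 1 group and 3.15% with the replicate block.

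The log2 difference changed sign for the brighter Nr3c2 probe (-0.085 with the 75th percentile, -0.109 with quantile normalization, -0.078 with that and the block), for the second Fkbp5 probe (-0.052, -0.042 and -0.021 under the same settings), for the brightest (-0.0023, -0.028 and -0.0033) and for Sgk (-0.067, -0.084 and -0.069). Leaving out 1 rat moved Sgk between -0.113, without heroin replicate 3, and 0.295, without saline replicate 4, and it was also negative without saline replicate 2 (-0.022). It moved the dimmest Fkbp5 probe between -0.082 (saline replicate 5 left out) and 0.031 (saline replicate 6 left out), and that probe was also positive without saline replicate 2 (0.0090) or heroin replicate 4 (0.028). Hsd11b1 was -0.050 after quantile normalization with the block. The cause was not tested.

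Of the single differences computed under an alternative, 567 counted as unchanged, 18 changed sign and 10 moved past the thresholds. For tested probes, unchanged means the same direction and the same side of the thresholds. For Crhr2 and the dimmer Nr3c2 probe, which were not tested, it means a shift smaller than the larger group SD, whatever the thresholds. Crhr2 and the dimmer Nr3c2 probe lay near the background, and their sizes are limited by it.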

Other observations

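Among the related stress peptides and receptors, Mc4r, the melanocortin 4 receptor, was detected on 10 of 11 arrays and so stood outside the limma fit. Its signal was 0.799 ± 0.149 (SD, n = 6) in the heroin rats and 0.520 ± 0.164 (SD, n = 5) in the saline rats, in multiples of the array median. The log2 difference was 0.67 with an exact two-sided permutation p = 0.0108, and 0.80 after quantile normalization with an exact permutation p = 0.00866, neither of them adjusted. Avpr1a, a vasopressin receptor gene detected on 10 arrays, differed by -0.47 (exact permutation p = 0.0584) and by -0.34 after quantile normalization. Both genes were chosen after their values were seen.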
